A study of Mus musculus with 12 samples.

Results

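MHC class I antigen presentation genes were followed in the brain of Tpp1-/- mice, a model of classical late infantile neuronal ceroid lipofuscinosis (cLINCL) that lacks the lysosomal peptidase tripeptidyl peptidase 1. The members were a list of gene names, with no threshold on a value: B2m, H2-K1, H2-D1, Tap1, Tap2, Tapbp, Psmb8, Psmb9, Psmb10 and Nlrc5, which are 10 of the 52459 genes in the count tables, and all 10 passed the filter on low counts in every comparison. The 12 RNA-seq libraries fall into 4 groups of 3, the cerebellum (Cb) and the forebrain with the midbrain (F/M), each from controls (N) and from Tpp1-/- mice (T), written Cb-N, Cb-T, F/M-N and F/M-T. All mice were males of 4 months, the controls were wild-type siblings from heterozygous crosses, and Tpp1 was disrupted by gene targeting in the germline, so that no cell type was singled out. By the study's methods the RNA of both areas came from 3 mice of each genotype, so that Cb and F/M libraries of a genotype share animals, but the labels do not tie a library to a mouse. Contrasts between areas treated the 12 libraries as independent samples, and their p-values do not account for shared animals.

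MHC class I molecules show peptides from inside the cell to CD8 T cells and to receptors of natural killer and myeloid cells. Peptides are cut by the proteasome, whose 3 constitutive catalytic subunits can be exchanged for immunoproteasome subunits, carried into the endoplasmic reticulum by the TAP transporter and loaded with the help of tapasin onto a heavy chain paired with beta-2 microglobulin. Transcription of many of these genes is raised by interferons and by the transactivator NLRC5, and in the healthy brain class I levels are low in most cells, microglia and endothelium being among the cells that carry them.

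Promoter windows of 300 bases, from 250 bases before to 50 after the RefSeq start site (GRCm38.p6), were at hand for 8 of the 10 genes, not for Tap2 and Nlrc5. The windows of B2m, H2-K1 and H2-D1 held a TGACG and an ATTGG, the latter being the CCAAT box read on the other strand, at a fixed spacing of 20 bases, the layout of the X2 and Y boxes of class I promoters to which the NLRC5 enhanceosome is recruited. These elements are shown because the 3 genes encode the subunits of the molecule at the cell surface, and capitals mark the TGACG and the ATTGG.
B2m, chr2:122147609-122147638, + strand: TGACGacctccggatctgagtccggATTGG
H2-K1, chr17:34000359-34000388, - strand: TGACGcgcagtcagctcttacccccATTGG
H2-D1, chr17:35262993-35263022, + strand: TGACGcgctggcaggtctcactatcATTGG

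Counted from the start site, the element began at base -78 in B2m, -41 in H2-K1 and -101 in H2-D1. The pattern was put together after the sequences had been seen, and on either strand 31 of 32851 promoter windows (0.0944%) held it. The bases before the start site are printed for B2m and H2-K1, the pair that rose by similar folds in both areas, with capitals for the spaced element and for 2 further motifs.
B2m, chr2:122147437-122147686, + strand: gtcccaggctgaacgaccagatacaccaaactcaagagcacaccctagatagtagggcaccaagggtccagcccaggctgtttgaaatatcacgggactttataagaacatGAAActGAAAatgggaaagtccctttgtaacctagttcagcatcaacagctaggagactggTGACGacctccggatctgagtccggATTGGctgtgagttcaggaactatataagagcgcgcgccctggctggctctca
H2-K1, chr17:34000348-34000597, - strand: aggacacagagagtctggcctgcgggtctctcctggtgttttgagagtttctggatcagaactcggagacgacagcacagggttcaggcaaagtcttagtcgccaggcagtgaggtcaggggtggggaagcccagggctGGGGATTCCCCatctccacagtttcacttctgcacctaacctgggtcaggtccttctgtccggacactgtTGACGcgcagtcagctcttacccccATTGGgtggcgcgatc

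The upstream capitals in B2m mark a strict form of the interferon-stimulated response element, a GAAA and another with any 2 bases between. On either strand it stood in 1 of the 8 member windows and in 3.44% of all windows. Looser forms of the element were not searched, so that a window without the strict form may still hold one. In H2-K1 the upstream capitals mark a palindromic kappaB site, GGGG, ATT and CCCC in a row. It was held by 2 of the 8 member windows (H2-K1 and H2-D1) and by 10 of all 32851 (0.0304%). Single TGACG and CCAAT letters were common, in 20.8% and 37.4% of all windows, and stood in 5 and 6 of the 8. The windows of Tap1 and Psmb9 share 275 bases, so that the same TGACG and the same CCAAT were counted for both genes. A match of letters describes the window and does not show that a factor binds there.

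Tpp1 (chr7:105744811-105752235, - strand), the disrupted gene, stood at 112 to 114 CPM (counts scaled to the TMM-normalized library size over the 12 libraries) in control cerebellum against 28.0 to 31.1 in Cb-T, and 87.8 to 94.4 in F/M-N against 21.8 to 23.9 in F/M-T, so that no T library came near an N library. Pcp2, a marker of the Purkinje cells of the cerebellum, averaged 248 CPM in Cb-N and 236 in Cb-T but 0.161 in F/M-N and 0.300 in F/M-T. Library totals were 21428379 to 24458189 counts, at which 3 counts make 0.123 to 0.140 CPM. Each pair of genotypes was tested with edgeR's quasi-likelihood test over all genes of the area, with Benjamini-Hochberg adjustment. A gene was a differentially expressed gene (DEG) at a false discovery rate (FDR) under 0.1 together with at least a 1.5-fold change, the limits of the study. These p-values measure the spread between libraries labelled as separate samples.

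Class I genes were raised in the Tpp1-/- brain in both areas. In Cb, 7 of the 10 were DEG, all higher, where 8.54% of the 16382 genes tested were higher DEG. In F/M, 7 of the 10 were DEG and higher, against 2.63% of 16665 genes. The median log2 fold change of the 10 was 0.77 in Cb and 1.11 in F/M, beside 0.01 for all genes tested in either area. The Cb-T libraries lay above all Cb-N libraries for 9 of the 10 genes, as they did for 27.7% of genes tested, and the F/M-T above all F/M-N libraries for 9 of the 10, as for 13.3% of genes. All 10 passed the FDR alone with a rise in Cb, where 29.8% of genes did, and 9 in F/M, where 12.8% did. These are levels in whole tissue, where more cells of a type and more RNA per cell cannot be told apart.

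**Figure D1:**
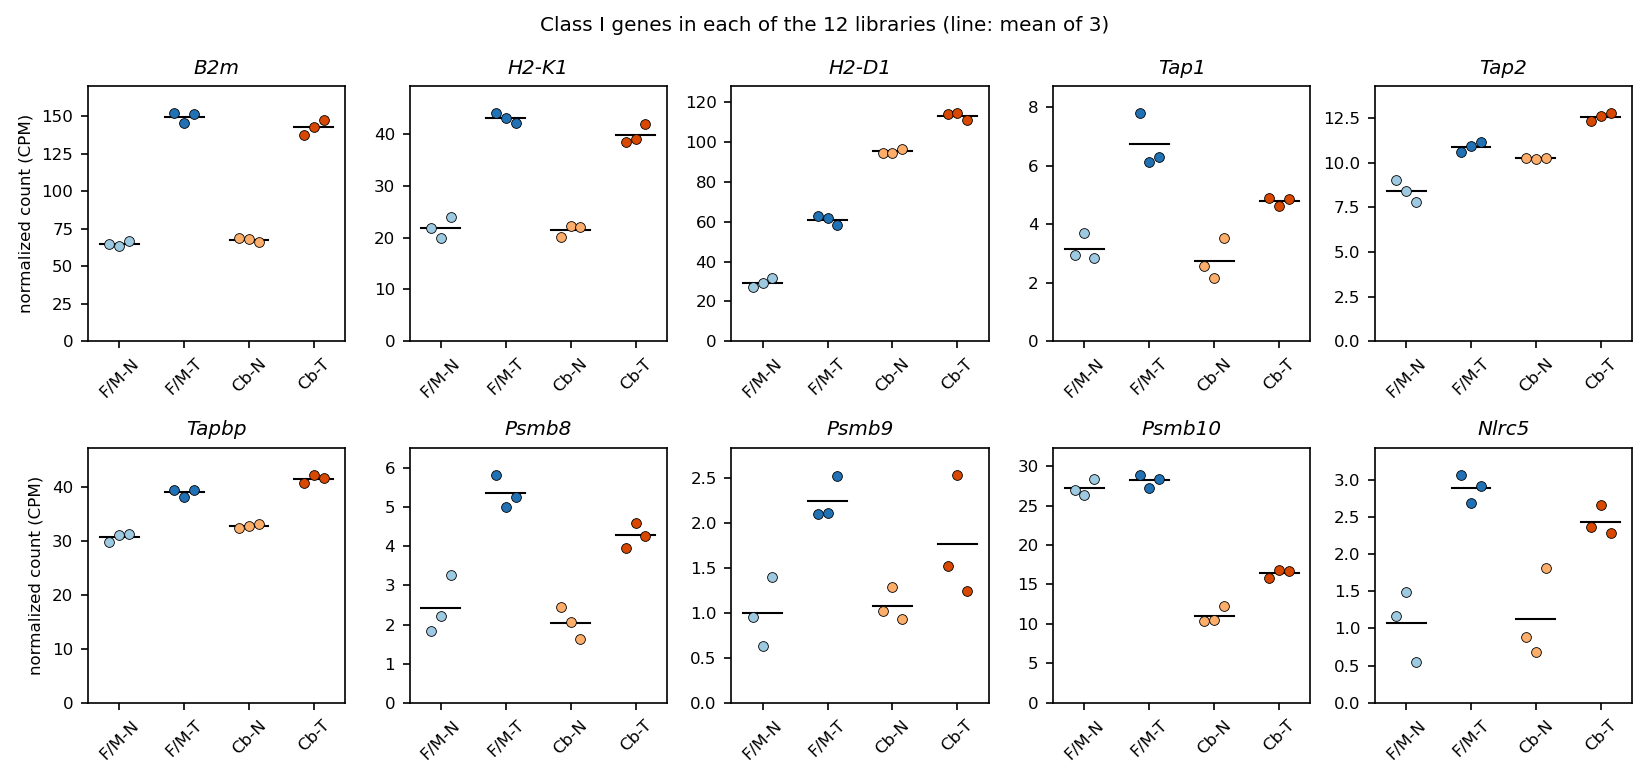
Normalized count (CPM, linear axis from 0) of each of the 10 class I genes in the 12 libraries, 1 point per library and a line at the mean of 3, for F/M-N, F/M-T, Cb-N and Cb-T. The T libraries lie above the N libraries of their area except for Psmb9 in Cb and Psmb10 in F/M, where the groups overlap.

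B2m (chr2:122147686-122153083, + strand, with the members' positions here from GENCODE M21 on GRCm38) encodes beta-2 microglobulin, the light chain of every classical class I molecule. In Cb it stood at 68.7, 67.9 and 65.9 CPM in the 3 Cb-N libraries and at 138, 143 and 147 in the Cb-T libraries. The F/M-N libraries held 64.8, 63.2 and 67.0 CPM and the F/M-T libraries 152, 145 and 151. Levels roughly doubled in both areas, with a wide gap between genotypes, from nearly the same control level. The log2 fold change was 1.09 ± 0.03 (SE) in Cb (adjusted p = 1.17e-28) beside 1.23 ± 0.04 in F/M (adjusted p = 3.58e-15).

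H2-K1 (chr17:33996017-34000347, - strand) encodes the class I heavy chain K, which binds the peptide. Cb-N libraries had 20.1, 22.3 and 22.1 CPM and Cb-T libraries 38.6, 39.1 and 42.0. In F/M the values were 21.9, 20 and 23.9 CPM in F/M-N and 44.0, 43.1 and 42.1 in F/M-T. Here too the control levels of the areas lay together and those of the Tpp1-/- libraries stood apart from them, by a log2 fold change of 0.90 ± 0.05 in Cb (adjusted p = 2.26e-18) beside 1.01 ± 0.06 in F/M (adjusted p = 1.47e-10).

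H2-D1 (chr17:35262730-35267499, + strand), the second classical heavy chain, rose in both areas too, but far less in Cb than in F/M. Its level was 94.6, 94.7 and 96.5 CPM in Cb-N and 114, 114 and 111 in Cb-T. In F/M-N it was 27.4, 29.2 and 31.7 CPM, and in F/M-T 62.8, 61.8 and 58.6. Control cerebellum thus held more H2-D1 than Tpp1-/- forebrain/midbrain, and no library of 1 area overlapped the other. In Cb the change was small, 0.26 ± 0.03 on the log2 scale (1.20-fold, adjusted p = 2.09e-09), and under the 1.5-fold limit. In F/M it was 1.08 ± 0.05 (2.12-fold, adjusted p = 5.15e-12).

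Set side by side per length, as RPKM over annotated exons, H2-D1 was 5.06 times H2-K1 in Cb-N (4.84 to 5.36 over the 3 libraries) and 3.24 times in Cb-T (3.01 to 3.37). In F/M the ratio was 1.53 (1.43 to 1.67) in F/M-N and 1.62 (1.59 to 1.63) in F/M-T. The ratio therefore fell in Cb-T with no overlap of libraries and overlapped between genotypes in F/M. Both genes share sequence with other class I genes, 9.63% of the 50-base words of H2-K1 transcripts and 12.8% of those of H2-D1 also occurring in transcripts of other genes, and how reads with several alignments were counted is not given in the sources used here.

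The TAP transporter is a pair of half-transporters, TAP1 and TAP2, whose genes lie close together with Psmb8 between them. Tap1 (chr17:34187553-34197225, + strand) had 2.58, 2.16 and 3.53 CPM in Cb-N and 4.90, 4.63 and 4.85 in Cb-T. In F/M it had 2.95, 3.69 and 2.84 CPM in F/M-N and 7.80, 6.13 and 6.30 in F/M-T. The groups did not overlap in either area, and the log2 fold change was 0.81 ± 0.15 in Cb (adjusted p = 9.96e-06) beside 1.13 ± 0.14 in F/M (adjusted p = 5.72e-06).

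Tap2 (chr17:34203527-34216321, + strand) held 10.25, 10.23 and 10.26 CPM in Cb-N and 12.3, 12.6 and 12.8 in Cb-T, which is 0.31 ± 0.08 on the log2 scale (adjusted p = 0.00123). F/M-N libraries had 9.03, 8.42 and 7.79 CPM and F/M-T libraries 10.6, 10.9 and 11.1, a change of 0.41 ± 0.08 (adjusted p = 0.00179). Genotypes were apart in both areas, but by 1.24-fold and 1.33-fold, under the limit for a DEG. Per length, Tap1 made up 15.6% of the sum of Tap1 and Tap2 in Cb-N (12.7% to 19.2%) and 20.9% in Cb-T (20.2% to 21.5%), and 20.6% in F/M-N (18.4% to 23.2%) and 29.9% in F/M-T (27.9% to 33.7%). The share of Tap1 was higher in the Tpp1-/- libraries of both areas, with no overlap.

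Tapbp (chr17:33915899-33929292, + strand) encodes tapasin, which holds an empty class I molecule at the transporter. It had 32.3, 32.8 and 33.1 CPM in Cb-N and 40.7, 42.3 and 41.6 in Cb-T, and 29.9, 31.1 and 31.3 in F/M-N and 39.5, 38.2 and 39.5 in F/M-T. The change was nearly the same in the areas, 0.36 ± 0.05 in Cb (adjusted p = 1.14e-08) beside 0.38 ± 0.05 in F/M (adjusted p = 1.15e-05), and under 1.5-fold in both.

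Immunoproteasome subunits stood at low levels, with the exception of Psmb10. Psmb8 (chr17:34197721-34201454, + strand), which takes the place of Psmb5, had 2.44, 2.06 and 1.62 CPM in Cb-N and 3.97, 4.59 and 4.27 in Cb-T. Its F/M-N libraries had 1.82, 2.21 and 3.26 CPM and its F/M-T libraries 5.83, 5.01 and 5.27. It roughly doubled in both areas without overlap, by 1.07 ± 0.16 on the log2 scale in Cb (adjusted p = 1.93e-07) beside 1.17 ± 0.16 in F/M (adjusted p = 3.43e-05).

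Psmb9 (chr17:34181987-34187764, - strand), the partner of Psmb6, was read by 20 to 28 counts per library in Cb-N and by 36, 63 and 30 in Cb-T. Its CPM was 1.02, 1.29 and 0.93 in Cb-N and 1.52, 2.54 and 1.24 in Cb-T. The lowest Cb-T library lay below the highest Cb-N library, and the call in Cb (0.73 ± 0.25, adjusted p = 0.0127) rested on Cb-T replicate 2, without which the change was 0.37 with an adjusted p of 0.274. In F/M it had 0.95, 0.63 and 1.40 CPM in F/M-N and 2.10, 2.11 and 2.53 in F/M-T, with no overlap and a change of 1.20 ± 0.24 (adjusted p = 0.00109).

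Psmb10 (chr8:105935735-105938444, - strand), which replaces Psmb7, was the other gene whose areas parted. Cb-N libraries had 10.4, 10.5 and 12.2 CPM and Cb-T libraries 15.8, 16.9 and 16.8, a rise of 0.59 ± 0.08 on the log2 scale (1.51-fold, adjusted p = 1.31e-08). F/M-N libraries had 27.0, 26.3 and 28.4 CPM and F/M-T libraries 28.9, 27.3 and 28.4, a change of 0.08 with a 95% interval of -0.03 to 0.20 (adjusted p = 0.312). F/M was thus above both Cb groups whatever the genotype, and its genotypes overlapped. In Cb the fold sat at the limit: it fell below 1.5 without Cb-N replicate 1 (0.55 on the log2 scale), Cb-N replicate 2 (0.55), Cb-T replicate 2 (0.58) or Cb-T replicate 3 (0.58), with an adjusted p of at most 4.85e-06 in every fit that left out 1 library.

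Against their constitutive counterparts, and per length, immunoproteasome transcripts were a minor part. Psmb8 made up 4.08% of Psmb8 plus Psmb5 in Cb-N (3.44% to 4.82%) and 7.02% in Cb-T (6.70% to 7.37%), 3.97% in F/M-N (3.06% to 5.38%) and 7.93% in F/M-T (7.56% to 8.16%). The share of Psmb9 in Psmb9 plus Psmb6 was 0.743% in Cb-N, 1.05% in Cb-T, 0.687% in F/M-N and 1.38% in F/M-T, with overlap in Cb. Psmb10 was a larger part of Psmb10 plus Psmb7, at 23.3% in Cb-N (22.4% to 24.7%), 27.7% in Cb-T (26.3% to 28.9%), 39.3% in F/M-N (38.1% to 40.0%) and 38.5% in F/M-T (38.0% to 39.5%). The Psmb8 share was higher in Tpp1-/- libraries of both areas, and the Psmb10 share in those of Cb, with overlap in F/M. These shares rest on union exon length, which was 3381 bases for Psmb8 and 899 for Psmb5, but 1705 for Psmb10 and 3421 for Psmb7. In CPM, Cb-N averaged 2.04 for Psmb8 and 12.7 for Psmb5, beside 11.03 for Psmb10 and 72.8 for Psmb7. The order of the pairs therefore depends on the length used, while the order of groups within a pair does not.

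**Figure D2:**
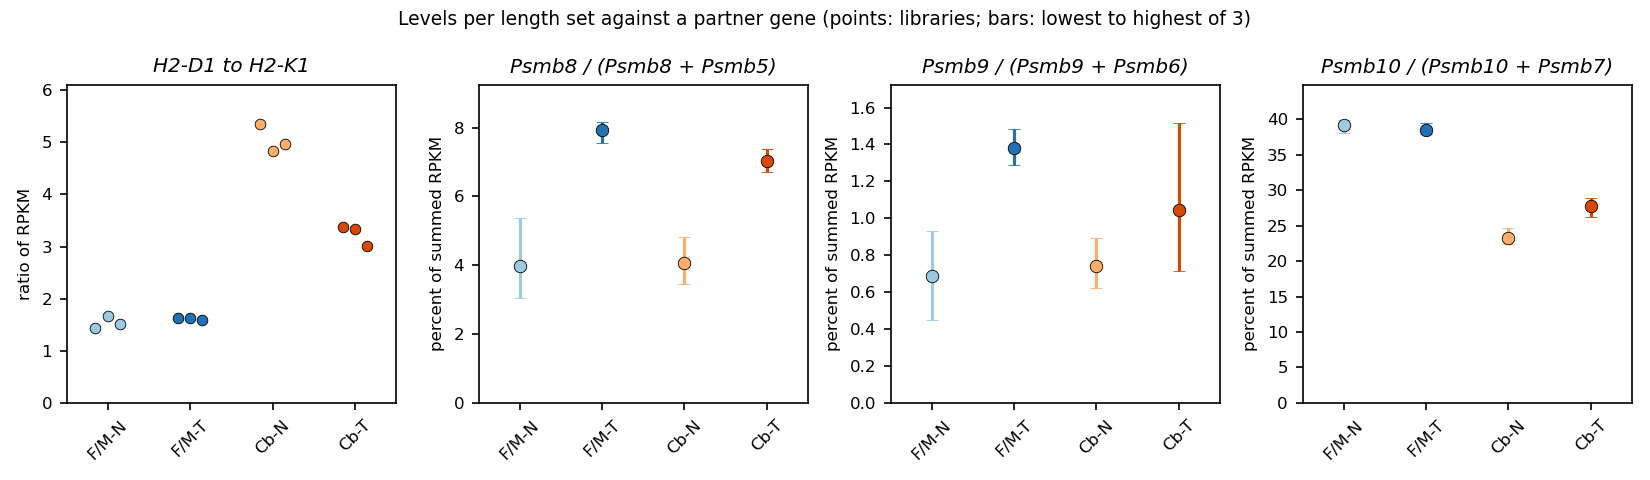
Levels per length set against a partner gene in F/M-N, F/M-T, Cb-N and Cb-T: the ratio of H2-D1 to H2-K1 RPKM (1 point per library) and the percent that Psmb8, Psmb9 and Psmb10 make up of their sum with Psmb5, Psmb6 and Psmb7 (point: mean of 3, bar: lowest to highest library). H2-D1 stands at 5.06 times H2-K1 in Cb-N and 1.53 times in F/M-N, and the Psmb8 share is higher in T than in N in both areas.

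Nlrc5 (chr8:94434356-94527272, + strand), the transactivator of class I genes, was read by 13 to 39 counts in the N libraries and by 55 to 70 in the T libraries. Its level was 0.89, 0.69 and 1.81 CPM in Cb-N and 2.36, 2.66 and 2.28 in Cb-T. F/M-N libraries had 1.17, 1.49 and 0.55 CPM and F/M-T libraries 3.07, 2.69 and 2.91. The spread among controls was wide, but no T library fell to the highest N library, and the change was 1.13 ± 0.23 in Cb (adjusted p = 6.35e-05) beside 1.47 ± 0.23 in F/M (adjusted p = 0.000119). It was the largest change of the 10 in either area, but not without Cb-N replicate 1 (0.97, below Psmb8 at 1.22), Cb-N replicate 2 (0.87), Cb-T replicate 2 (1.06) or F/M-N replicate 3 (1.15).

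Exons of 6 of the genes share bases with a gene on the other strand, and the strand setting of the counting is not given in the sources used here. Tap1 and Psmb9 share 212 bases with each other, their RefSeq start sites standing head to head with 225 bases between them. Psmb8 shares 498 bases with Gm20496, and Tap2 698 with Gm15821 and Gm20496. Nlrc5 shares 78 with 9330175E14Rik. Tapbp shares 904 bases with genes on the other strand and 149 on its own, the genes being Gm19412 and Zbtb22. The kit keeps the strand, so reads of these stretches are separable only if the counting used it, and the same-strand bases of Tapbp are not, while B2m, H2-K1, H2-D1 and Psmb10 share none.

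Whether the genes changed by different amounts in the areas was tested as the change in Cb minus the change in F/M, over all 12 libraries with the 4 group means. H2-D1 was the 1 gene of the 10 that passed both limits, at -0.80 ± 0.06 on the log2 scale (95% interval -0.92 to -0.68, adjusted p = 7.38e-12), where 7.61% of the 17482 genes tested passed in either direction and 1.2% passed lower in Cb. Psmb10 changed more in Cb by 0.53 (0.34 to 0.72, adjusted p = 5.2e-05), a 1.45-fold difference that missed the fold limit, and B2m less by 0.12 (-0.22 to -0.02, adjusted p = 0.0863). These 3 genes passed the FDR alone, as 27.5% of genes tested did. For Tapbp the difference was 0.00 (-0.13 to 0.13), for H2-K1 -0.08 (-0.25 to 0.09) and for Tap2 -0.08 (-0.30 to 0.15), so that a 1.5-fold difference lay outside their intervals. For Tap1 it was -0.29 (-0.73 to 0.14), for Psmb8 -0.07 (-0.57 to 0.42), for Psmb9 -0.45 (-1.22 to 0.33) and for Nlrc5 -0.33 (-1.09 to 0.43). Those intervals are wide at such counts, and a 1.5-fold difference lies inside the intervals of Tap1, Psmb9 and Nlrc5.

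**Figure D3:**
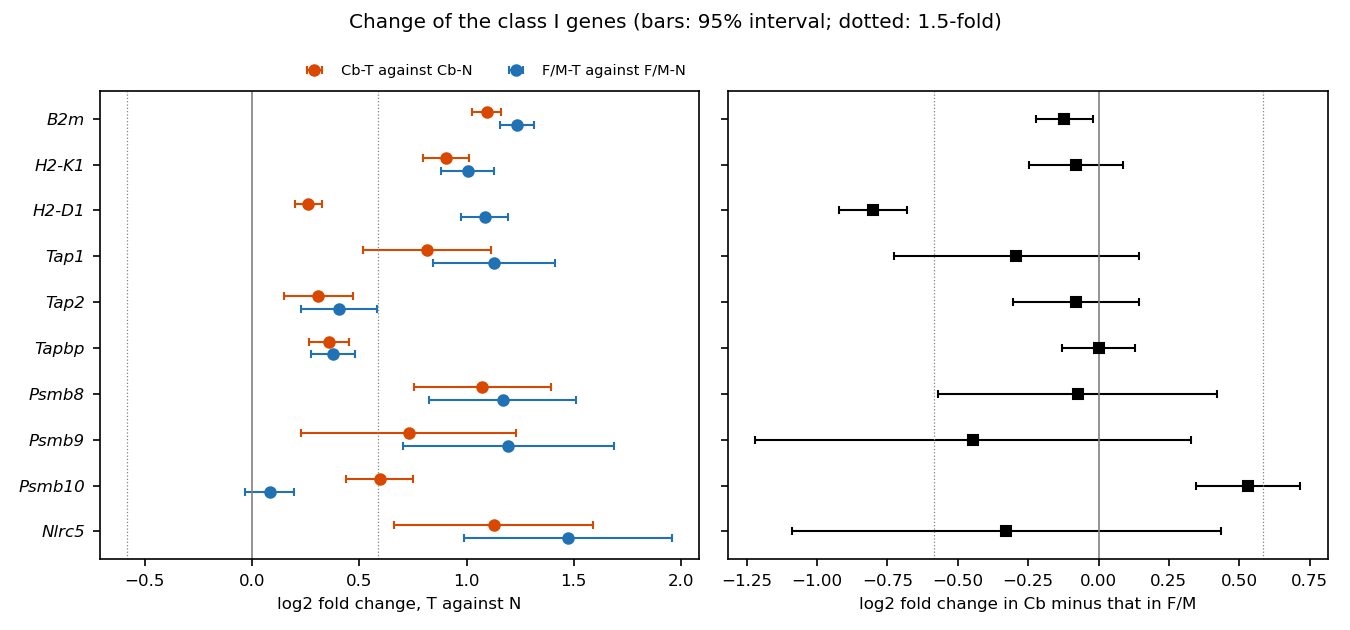
Log2 fold change of the 10 class I genes in Cb-T against Cb-N and F/M-T against F/M-N (left) and the change in Cb minus that in F/M (right), with 95% intervals and dotted lines at 1.5-fold. H2-D1 lies to the left of the lower dotted line at -0.80, and Psmb10 to the right of 0 at 0.53.

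The order of levels per length was led by B2m in all groups, at 78.5 RPKM in Cb-N, 166 in Cb-T, 75.6 in F/M-N and 174 in F/M-T. Nlrc5 was last in each, at 0.13 to 0.34 RPKM, next to Psmb9, at 0.27 to 0.61. Second came H2-D1 in Cb-N (37.0 RPKM), Cb-T (43.9) and F/M-T (23.7), but Psmb10 in F/M-N (15.97, with H2-D1 at 11.4). Between the control groups, H2-D1 was 3.23-fold higher in Cb-N than in F/M-N (log2 1.69 ± 0.04, adjusted p = 6.33e-25) and Psmb10 lower (-1.31 ± 0.07, adjusted p = 2.75e-17). These 2 of the 10 were DEG between the areas, as 42.4% of all genes were. Between Cb-T and F/M-T the same genes were DEG, with H2-D1 at 0.89 (adjusted p = 4.52e-19) and Psmb10 at -0.77 (adjusted p = 9.4e-13), against 35.9% of genes. B2m and H2-K1 differed between control areas by 0.05 (adjusted p = 0.202) and -0.03 (adjusted p = 0.673). By the FDR alone 4 of the 10 differed between the control areas, as 79.6% of genes did, and 8 between the Tpp1-/- areas, as 76.3% did.

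Nonclassical and class I-like heavy chains moved in part with the classical ones. Of 26 listed genes, 15 were tested in Cb and 6 were higher DEG, where 8.54% of all genes tested were, with a median log2 fold change of 0.47. In F/M 16 were tested and 4 were higher DEG, against 2.63% of all genes, with a median of 0.40. None of the listed genes was a lower DEG. The largest in Cb were Cd1d1, which presents lipids, at 1.62 ± 0.38 (adjusted p = 0.000393), and H2-Q6 at 1.16 ± 0.28 (adjusted p = 0.000485). In F/M they were H2-Q6 at 2.07 ± 0.30 (adjusted p = 5.09e-05) and H2-Q4 at 1.31 ± 0.13 (adjusted p = 6.51e-07). Cd1d1 was -0.23 in F/M (adjusted p = 0.638), and its change differed between the areas by 1.87 (95% interval 0.87 to 2.87, adjusted p = 0.00533). Its mean was 0.258 CPM in Cb-N against 0.797 in Cb-T, so that in Cb it passed the filter on low counts through the T libraries. The same held for H2-Q7 in F/M, a DEG there (0.334 CPM in F/M-N against 0.740 in F/M-T). For genes kept in this way a rise was the only likely call. Shares of 19.1% of the 50-base words of Cd1d1, 32.0% of H2-Q6 and 21.8% of H2-Q4 occur in other genes' transcripts, so their counts are uncertain.

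Other genes of peptide loading and trimming held none of the rise that passed both limits, with 0 of 19 DEG by edgeR in either area and medians of -0.02 in Cb and 0.02 in F/M. DESeq2 and limma-voom also gave 0, while 14 had an unadjusted p under 0.05 in each area and at the FDR alone 7 were higher and 7 lower in Cb, 5 higher and 8 lower in F/M. Of all genes tested, 29.8% were higher at the FDR alone in Cb and 12.8% in F/M. Erap1, which trims peptides in the endoplasmic reticulum, changed by 0.39 ± 0.07 in Cb (adjusted p = 3.01e-06) beside 0.23 ± 0.07 in F/M (adjusted p = 0.0179). Tapbpl, a relative of tapasin, changed by 0.31 in Cb (adjusted p = 0.0134) and was 0.04 in F/M (adjusted p = 0.787). The chaperone gene Calr was among the lower ones, at -0.10 in both (adjusted p = 0.000695 for Cb, 0.0196 for F/M).

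Constitutive proteasome genes and activators held 0 of 21 DEG by edgeR, DESeq2 or limma-voom in either area. At the FDR alone 16 were higher and 1 was lower in Cb, where 29.8% of all genes tested were higher. In F/M 14 were higher and 0 lower, where 12.8% of all genes were higher. An unadjusted p under 0.05 was held by 17 of the 21 in Cb and 15 in F/M. The median change of the 21 was 0.23 in Cb and 0.18 in F/M. The lower one was the activator gene Psme4, at 119 CPM in Cb-N and 92.7 in Cb-T (-0.34 ± 0.03, adjusted p = 7.97e-12), which stood at -0.01 in F/M (adjusted p = 0.835). Psmb5 stood at 0.26 and 0.11, Psmb6 at 0.23 and 0.20 and Psmb7 at 0.26 and 0.13 in Cb and F/M. The activator genes Psme1 and Psme2, which are raised by interferon gamma in many cells, changed by 0.53 ± 0.07 (adjusted p = 1.86e-08) and 0.34 ± 0.10 (adjusted p = 0.00343) in Cb and by 0.36 ± 0.07 (adjusted p = 0.00084) and 0.31 ± 0.09 (adjusted p = 0.0205) in F/M.

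**Figure D4:**
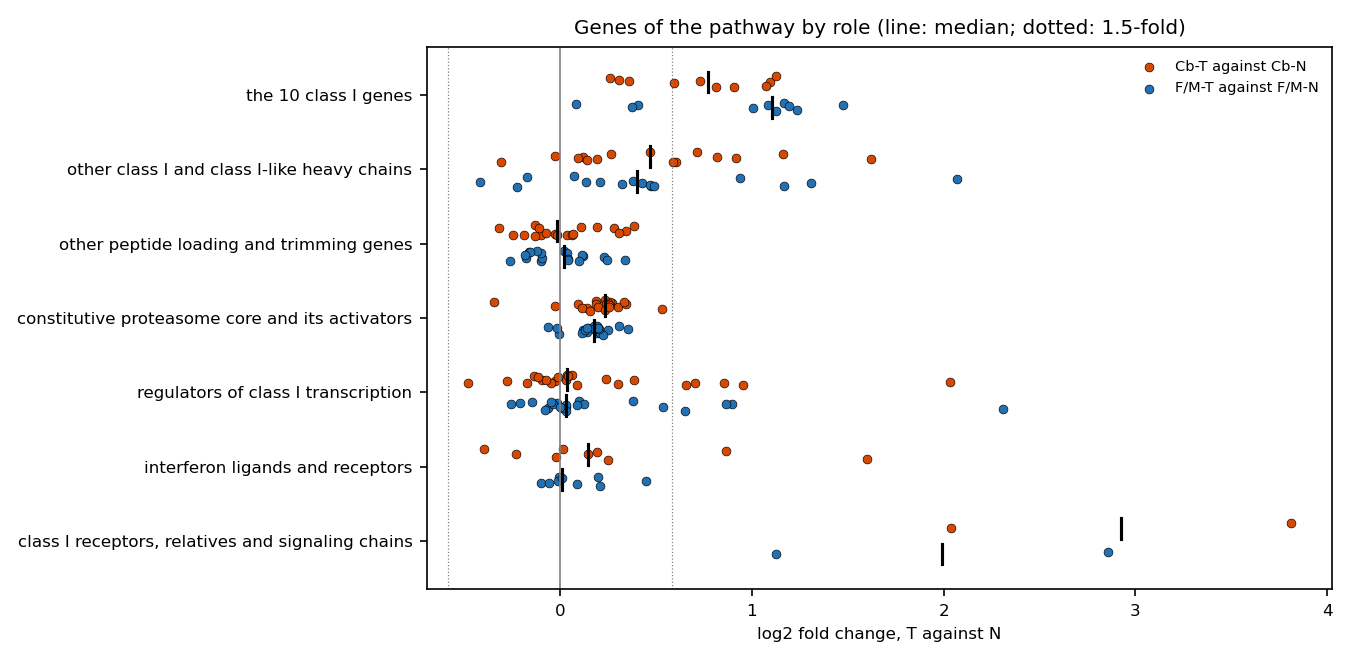
Log2 fold change of the tested genes of 7 groups of the class I pathway in Cb-T against Cb-N and F/M-T against F/M-N, 1 point per gene, with a line at the median and dotted lines at 1.5-fold. The medians of the 10 class I genes are 0.77 and 1.11, while those of peptide loading genes lie at -0.02 and 0.02.

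Of 23 regulators of class I transcription, 4 were higher DEG in Cb, where 8.54% of all genes tested were. In F/M 4 of 22 tested were higher DEG, against 2.63% of all genes. In Cb the largest were Irf8, a factor of myeloid cells, at 2.04 ± 0.15 (adjusted p = 1.54e-15) and Irf7, a factor of the type I interferon response, at 0.96 ± 0.15 (adjusted p = 4.39e-07). In F/M they were Irf7 at 2.31 ± 0.14 (adjusted p = 4.28e-10) and Irf8 at 0.90 ± 0.12 (adjusted p = 2.28e-05). Irf1, an activator of class I promoters, changed by 0.70 ± 0.12 in Cb (adjusted p = 3.88e-06) and by 0.38 ± 0.11 in F/M (adjusted p = 0.0152, under 1.5-fold).

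By the test of the difference, 5 of the 23 regulators differed between the areas, 2 changing more in Cb and 3 more in F/M, where 7.61% of all genes tested did in either direction. Irf8 changed more in Cb by 1.16 (adjusted p = 4.38e-05) and Relb by 0.85 (adjusted p = 0.00123). More in F/M changed Irf7, at -1.33 (adjusted p = 1.62e-05), and Irf9, at -0.73 (adjusted p = 3.7e-07), among others. Irf1 did not pass (0.34, 95% interval 0.02 to 0.67, adjusted p = 0.123). Ciita, the transactivator of class II genes, was 0.66 in Cb (adjusted p = 0.207) and too low to be tested in F/M.

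Among interferon ligands and receptors, 9 of 18 were tested in each area, where 8.54% of all genes tested in Cb and 2.63% in F/M were higher DEG. Ifng had 0 counts in all 12 libraries, which at 3 counts allows up to 0.123 to 0.140 CPM. The 2 DEG in Cb were the feedback inhibitors Socs3 at 1.60 ± 0.22 (adjusted p = 3.14e-08) and Socs1 at 0.86 ± 0.37 (adjusted p = 0.0475, but 0.161 with DESeq2), and F/M had 0 by edgeR, DESeq2 and limma-voom, with 3 at an unadjusted p under 0.05. A list of 20 class I receptors, their relatives and the chains through which they signal had 19 genes in the tables and 2 above the filter, both inhibitory receptors of myeloid cells and both higher. Pirb binds class I, while Lilrb4a is a relative for which class I is not an established ligand. Lilrb4a rose by 3.81 ± 0.20 in Cb (adjusted p = 5.08e-20) beside 2.86 ± 0.22 in F/M (adjusted p = 1.3e-08), and Pirb by 2.04 ± 0.41 (adjusted p = 4.28e-05) and 1.13 ± 0.38 (adjusted p = 0.043, DESeq2 giving no adjusted p at this low count in F/M). Pirb averaged 0.212 CPM in Cb-N and 0.291 in F/M-N against 0.884 in Cb-T and 0.626 in F/M-T. It passed the filter on low counts through the T libraries, as Socs1 did in Cb (0.364 CPM in Cb-N against 0.663 in Cb-T). For genes kept in this way a rise was the only likely call. The T cell genes Cd8a and Cd3e had at most 6 counts in a library.

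Microglia markers moved with the class I genes within each area, but not in the same proportion between areas. All 20 were tested, and 17 were higher DEG in Cb and 9 in F/M, where 8.54% and 2.63% of all genes were, with medians of 1.46 and 0.42. Their summed level went from 237 to 251 CPM in Cb-N up to 837 to 845 CPM in Cb-T, and from 675 to 699 in F/M-N up to 1036 to 1062 in F/M-T. By the test of the difference, 18 of the 20 changed more in Cb, as 6.41% of all genes did, with a median difference of 1.02, beside -0.10 for the 10 class I genes. Control levels parted as well, since the sum of the microglia markers was higher in every F/M-N library than in any Cb-N library while B2m and H2-K1 lay together. Psmb10 parted in that direction too, with a mean of 27.2 CPM in F/M-N against 11.03 for Cb-N, and H2-D1 in the other, with 29.5 against 95.3. The part of microglia in the class I values was not tested.

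**Figure D5:**
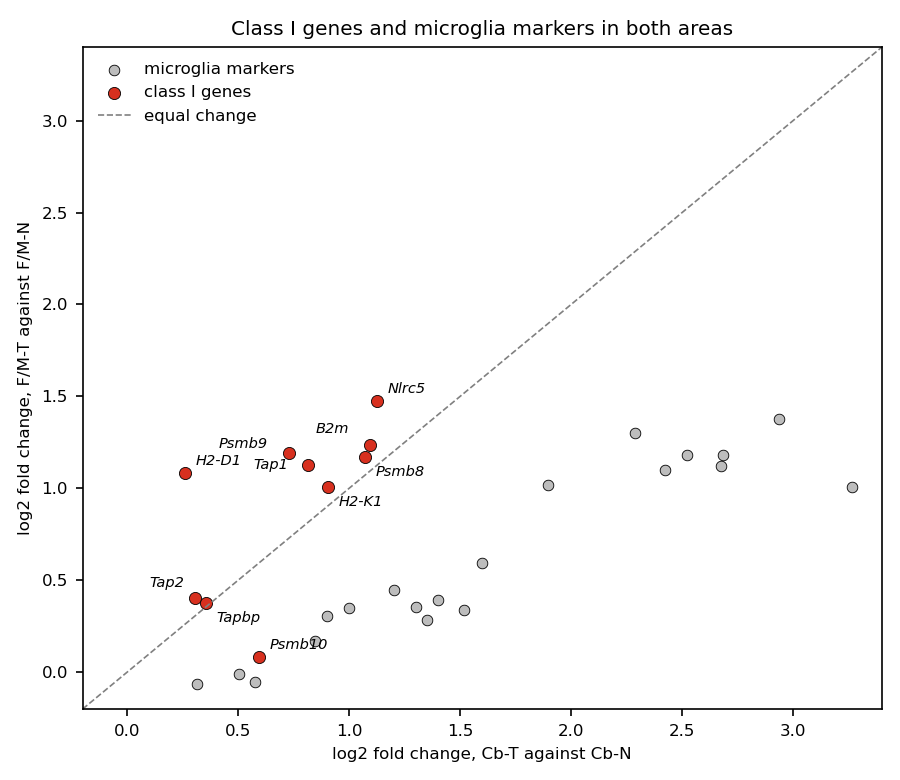
Log2 fold change in Cb-T against Cb-N (horizontal axis) and in F/M-T against F/M-N (vertical axis) for the 10 class I genes and 20 microglia markers, with a dashed line where both are equal. The microglia markers lie below the line, and the class I genes lie near or above it except Psmb10, at 0.59 and 0.08.

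Among markers of other cells, the largest changes were those of Gfap and Slc17a6. Gfap, a marker of reactive astrocytes, went from 153 CPM in Cb-N to 1142 in Cb-T (2.91 ± 0.02, adjusted p = 1.38e-50) and averaged 185 in the F/M-N libraries against 613 in the F/M-T libraries (1.76 ± 0.03, adjusted p = 1.19e-19), above all 10 class I genes in both areas. Slc17a6, a glutamate transporter of neurons, went from 21.2 CPM in Cb-N to 102 in Cb-T (2.28 ± 0.04, adjusted p = 2.27e-36) and was -0.02 in F/M (adjusted p = 0.653). Of the endothelial and mural markers, 0 of 13 were DEG by edgeR, DESeq2 or limma-voom in either area (at an unadjusted p under 0.05 there were 9 in Cb and 6 in F/M), and their sum was 491 to 506 CPM in Cb-N, 555 to 557 in Cb-T, 436 to 445 in F/M-N and 455 to 468 in F/M-T. Astrocyte markers had 2 of 12 higher DEG in Cb and 1 in F/M, and oligodendrocyte markers 1 of 10 and 0. Of all genes tested, 8.54% were higher DEG in Cb and 2.63% in F/M. At the FDR alone, where 29.8% of all genes tested were higher in Cb and 12.8% in F/M, 10 of the 12 astrocyte markers were higher and 1 was lower in Cb, and 9 were higher in F/M. Their sum was 7060 to 7112 CPM in Cb-N against 8926 to 8959 in Cb-T, and 5919 to 6230 in F/M-N against 6779 to 7186 in F/M-T. Of the 10 oligodendrocyte markers 9 were higher at the FDR alone in Cb, with a sum of 4771 to 4882 CPM in Cb-N against 6235 to 6297 in Cb-T, while 1 was higher and 2 were lower in F/M. Neuron markers had 1 of 12 higher DEG in Cb, which was Slc17a6, and 0 of 11 in F/M, while at the FDR alone 3 were higher and 8 lower in Cb, and 1 was higher and 4 lower in F/M. Those in Cb included Tubb3 at 0.34, Nefl at 0.31 and Rbfox3 at -0.38. Markers of blood, choroid plexus and meninges had 1 of 12 and 0 of 12, with 7 higher and none lower at the FDR alone in each area, and their sum was 684 to 727 CPM in F/M-N against 924 to 982 in F/M-T without overlap, while the Cb groups overlapped. Most of this sum was Ttr, a gene of the choroid plexus, with a mean of 555 CPM in F/M-N against 774 in F/M-T and of 2108 in Cb-N against 2051 in Cb-T. The erythroid genes rose at the FDR alone in both areas. Their changes ran from Hba-a1 at 0.36 to Alas2 at 0.64 on the log2 scale in Cb. In F/M they ran from Hbb-bs at 0.18 to Alas2 at 0.40, and only Alas2 in Cb was a DEG. The part of these cells in the class I values was not tested. In F/M, DESeq2 and limma-voom gave 0 as well for the oligodendrocyte, neuron and blood lists, of which 4, 6 and 9 genes had an unadjusted p under 0.05. Of 20 lymphocyte markers 3 were tested, with 2 higher in Cb (Trac and Lck) and 0 in F/M by all 3 tools, none at an unadjusted p under 0.05 there. Lck averaged 0.214 CPM in Cb-N against 0.798 in Cb-T, and in Cb it passed the filter on low counts through the T libraries. The sum of the 20 markers was 3.37 to 3.85 CPM in Cb-N, 6.43 to 7.53 in Cb-T, 11.4 to 12.3 in F/M-N and 13.5 to 14.5 in F/M-T. Single genes carried it, Cd4 with a mean of 7.87 CPM in F/M-N but 0.046 in Cb-N, and Trac with 2.11 in Cb-N, and the sum was not read as a level of lymphocytes. Cd3d, Cd3e, Cd3g, Cd8a and Cd8b1 had 0 to 6 counts in any library. Summed, these T cell genes had 2 to 3 counts in each Cb-N library against 11 to 15 in each Cb-T library, and 3 to 6 in each F/M-N library against 9 to 15 in each F/M-T library, so that they were higher with the class I genes in both areas, without overlap and too low to be tested gene by gene. Their part in the class I values was not tested.

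The genes whose pattern was most like that of the class I genes were sought by the root mean square difference of their 4 group means of log2 CPM, each centred, from the median profile of the 10, over 17472 genes. The nearest were Cd74 (0.02), the invariant chain of class II molecules, Oas2 (0.05), an interferon-induced antiviral enzyme, Sp110 (0.05), H2-T24 (0.05), a class I heavy chain, and Colec11 (0.05). Cd74 had 4.23 CPM in Cb-N, 7.90 in Cb-T, 4.52 in F/M-N and 9.27 in F/M-T. Group means were lower for Oas2 (0.627 to 1.37 CPM), Sp110 (0.455 to 1.14) and Colec11 (0.305 to 0.655), whose profiles rest on few counts. Among the 10 themselves, Tap2 and Tapbp were nearest to each other (0.08), as were Tap1 and Psmb8 (0.10) and B2m and Nlrc5 (0.10). H2-D1 (0.75) and Psmb10 (0.57) lay farthest from the median profile. These are likenesses of 4 means, and with a smaller prior count of 0.5 in the log 3 of the 5 genes stayed among the nearest.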

How the data were processed

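Poly(A)-selected RNA (Illumina TruSeq stranded kit, single-end reads of 50 bases) was read in 12 libraries. Per the labels and the methods, the authors aligned reads to GRCm38 (mm10) with STAR and deposited raw counts per gene from featureCounts 1.26.1, without normalization. The submitters' processing notes name STAR 2.5.1b. The strand setting, the treatment of reads with several alignments and the annotation release are not given in the sources used here. They decide how overlapping and similar genes share reads. Groups came from the sample titles.

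The statistics used edgeR 4.0.16 under R 4.3.3, with filterByExpr (minimum count 10, minimum total 15), TMM, glmQLFit and glmQLFTest, Benjamini-Hochberg adjustment over all genes tested, with genotype as the only factor in each area and 4 group means over 12 libraries for contrasts of areas. DEG had FDR under 0.1 and a fold of at least 1.5, the limits of the study, but by edgeR alone, whereas the study kept genes found by more than 1 of its methods. The SE is the log2 fold change over the root of the F statistic. RPKM divided CPM by union exon length. Intervals and floors cover counting error or library spread only. All 12 replicate pairs differed by more than sampling noise (chi-square per degree of freedom 1.28 to 3.59). The fits for Cb, for F/M and for the difference between areas were tested on simulated counts, and the other steps were not. Alternatives were DESeq2 1.42.0, limma-voom (limma 3.58.1), RLE factors, no filter, a mean count of at least 50, a replicate block, FDR below 0.05, no fold limit, 1 fit of 12 libraries and leaving out each replicate.

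All 10 members are named. Of each related list the 2 DEG with the largest rise and fall were named, with a fixed set (Tpp1, Psmb5, Psmb6, Psmb7, Psme1, Psme2, Irf1, Ciita, Ifng, Cd8a, Cd3e, Tapbpl, Erap1, Calr), and markers by counts and sums. The members and lists were chosen with earlier results of these data known. Relb, Irf9, Gfap, Slc17a6, Rbfox3, Tubb3, Nefl, Ttr, Hba-a1, Hbb-bs, Alas2, H2-Q7, Cd4, Psme4, Lck, Trac and the T cell receptor genes were named after their values were seen. Promoters came from RefSeq tables. A result for 1 further gene is not reported here.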

Additional observations from a re-analysis of the deposited data

Results flagged for a closer look

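The change of H2-D1 in Cb minus its change in F/M was -0.80 on the log2 scale. It stood out because the test of the difference between the areas passed both limits (edgeR, adjusted p = 7.38e-12). Every Cb-T library was above every Cb-N library and every F/M-T library above every F/M-N library, so that the areas differed in the size of the change and not in its direction. The difference lay between -0.86 and -0.75 when each of the 12 libraries was left out in turn.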

How the results depend on the processing

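The number of class I DEG was 7 in F/M and 5 to 7 in Cb when each replicate was left out, 1 to 2 for the difference between areas (2 without Cb-N replicate 3, when Psmb10 was 0.61), 2 between control areas and 2 to 3 between Tpp1-/- areas (3 without Cb-T replicate 2, when Psmb9 was -0.70). Related DEG numbered 13 to 14 for Cb, with 8 to 11 for F/M. With no fold limit, the difference had 3, the control areas 4 and the Tpp1-/- areas 8 of the 10, and related genes rose from 14 to 58 in Cb and from 10 to 49 in F/M. With a mean count of at least 50, fewer genes were tested and related genes were 8 and 5, and Psmb9 and Nlrc5 gave no value. In 1 fit of 12 libraries, 6 were DEG in Cb, Psmb10 being at 0.58.

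Values under the threshold turned sign. For the difference between areas, Tapbp was -0.025 with DESeq2 and with RLE factors, -0.045 with a mean count of at least 50 and -0.053 to 0.023 when replicates were left out, Psmb8 -0.35 to 0.10 and Nlrc5 -0.63 to 0.18. Between control areas, H2-K1 ranged from -0.093 to 0.036, Psmb8 from -0.42 to 0.025, Psmb9 from -0.13 to 0.43 and Nlrc5 from -0.42 to 0.39. The cause was not tested. No call of a class I gene between genotypes changed direction in any alternative run.

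With the replicate block, 7 of the 10 were DEG in each area, 1 for the difference and 2 in each contrast of areas. Deviations of same-numbered libraries correlated at -0.02 to 0.01 across the Cb groups, 0.01 to 0.06 across the F/M groups, 0.00 to 0.05 between the control areas and -0.002 to 0.02 between the Tpp1-/- areas, under the 0.1 taken as pairing. Areas of a genotype share mice by the study's methods, but which libraries do is not stated. DESeq2 gave 13 related DEG in Cb and 8 in F/M, where Pirb and H2-Q7 got no adjusted p. The depth limits Psmb9 and Nlrc5 most. The mouse strain, which sets the class I alleles, is not given in the labels.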

Other observations

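The element TGACG, 20 bases and ATTGG, found in the promoters of B2m, H2-K1 and H2-D1, occurred in the windows of 27 genes by symbol, of which 24 were in the count tables and 23 were tested in each area. In Cb 3 of the 23 were higher DEG, B2m, H2-K1 and H2-M3, a nonclassical class I heavy chain, and in F/M 3, B2m, H2-K1 and H2-D1, while of all genes tested 8.54% were higher DEG in Cb against 2.63% for F/M. The pattern was taken from B2m, H2-K1 and H2-D1 themselves, and among the other genes that hold it H2-M3 in Cb was the only higher DEG. H2-M3 changed by 0.60 in Cb (adjusted p = 0.00693, with overlapping libraries) and by 0.38 in F/M (adjusted p = 0.0612, under 1.5-fold). Per1, a clock gene that also holds the letters, was a lower DEG in both areas, at -0.91 in Cb (adjusted p = 3.51e-26) beside -0.76 in F/M (adjusted p = 1.71e-12). Nfe2l1, a factor that raises proteasome genes, stood at 0.19 in Cb (adjusted p = 3.52e-08, under 1.5-fold) and 0.01 in F/M (adjusted p = 0.788). The pattern and these genes were chosen after the data had been seen, and the counts describe these genes only.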
